A study of Mus musculus with 22 samples.

Results

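The transcripts of 10 genes of bone morphogenetic protein (BMP) and hedgehog signaling were measured in 6 cell populations sorted from the mouse colon crypt. The genes were taken by name, as 1 hedgehog ligand (Ihh), 3 BMP ligands (Bmp2, Bmp3 and Bmp7), 1 BMP receptor (Bmpr1a), 3 target genes (Id1, Id2 and Id3) and 2 inhibitors inside the cell (Smad6 and Smad7), out of 24421 genes in the count tables. All 10 passed the filter on low counts, which left 22781 genes, and the mean of each over the 22 libraries reached the minimum of 50 normalized counts. The animals were untreated wild-type male C57BL/6N mice aged 5 to 7 weeks, and no group carried an allele or received an agent. Live Epcam+ cells without Cd31 or Cd45 were divided by their surface Cd44, Cd24 and Ckit. Stem cells (Stem, 3 libraries) were Cd24low, Ckit- and Cd44highest, and absorptive progenitors (AbsPro, 3 libraries) were Cd24low, Ckit- and Cd44med/hi. SecPDG (4 libraries), a mixed gate of secretory progenitors, deep crypt secretory cells and some goblet cells, was Ckitmed, Cd24med and Cd44hi. Tuft cells (Tuft, 5 libraries) were Cd24hi and Ckit+, enterocytes (Ent, 5 libraries) were Cd24- and Cd44low/-, and enteroendocrine cells (EEC, 2 libraries) were Cd24+ and Cd44low/-. Within a type, the libraries came from independent mice and independent sorts. Sorts were pooled where cells were few, and several mice were pooled except in Stem and AbsPro. Whether libraries of different types shared mice was not stated. The populations are gates on surface proteins, not lineages marked genetically. They were compared in 9 ways, as each type against Stem, SecPDG against AbsPro, Ent against AbsPro, and Tuft and EEC against SecPDG.

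BMPs are secreted ligands that bind pairs of type I and type II receptors on the cell surface. The receptors phosphorylate Smad1, Smad5 and Smad9, which enter the nucleus with Smad4 and switch on target genes such as the Id genes. The same signal induces Smad6 and Smad7, which block the receptors and so close a negative feedback loop. In the colon, BMP activity is low at the crypt base, where stroma secretes antagonists of the ligands, and rises toward the surface, where cells leave the cycle and mature. Indian hedgehog (Ihh) is made by the epithelium and is received mainly by the stroma below it, which answers with BMP ligands.

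Reads counted on genes ranged from 4122122 to 22462518 per library. They were 5950619 to 12966128 in Ent, 9930648 to 20892532 in Tuft, 4122122 in EEC 1 and 13132315 in EEC 2. Every library of Stem, AbsPro and SecPDG held at least 15314543. The summed markers of each labelled type were highest in that type, as for tuft cell markers (43816 ± 14707 normalized counts in Tuft, SD, n = 5, against means of 68.5 to 5787 elsewhere). Enterocyte markers were the exception, with a mean of 74807 in AbsPro and 49375 in Ent. The EEC libraries stood apart from each other, since enterocyte markers summed to 4274 in EEC 1 and 92976 in EEC 2, and stromal markers to 4092 and 554. As a measure of background, 1437 olfactory and vomeronasal receptor genes, which belong to sensory neurons, held means of 0.683, 0.833 and 1.05 normalized counts per kb of coding length in Stem, AbsPro and SecPDG. In Tuft, Ent and EEC the same background was 8.26, 16.3 and 20.3, with 34.2 in EEC 1 and 6.43 in EEC 2. Endothelial markers moved with it, and their sum ranged from 10.1 to 19.9 in Stem, 0 to 91.2 in AbsPro and 25.9 to 78.8 in SecPDG. In the mature types it was 179 to 619 in Tuft, 353 to 828 in Ent and 873 to 1416 in EEC. All 4 endothelial markers were higher than in Stem in Tuft, Ent and EEC, and no endothelial marker was at 0 in any library of these 3 types. Stromal markers higher than in Stem numbered 2 of 8 in Tuft, 4 in Ent and 4 in EEC, with sums of 292 to 1098 in Tuft and 874 to 2232 in Ent. The immature types held 168 to 441 (Stem), 195 to 1455 (AbsPro) and 72.9 to 210.2 (SecPDG). Of 12 immune markers 2 were higher and 1 lower than in Stem in each of these 3 types, with sums of 1842 to 3845 in Tuft, 894 to 1279 in Ent, and 2862 and 617 in EEC 1 and EEC 2, against 652 to 903 (Stem), 587 to 864 (AbsPro) and 466 to 642 (SecPDG). The part of these other cells and of the background in the results was not tested. The deposited files carried 2 kinds of name, 1 for the 9 SecPDG and Tuft libraries and 1 for the other 13, so what the names stand for and the cell type cannot be told apart between these sets.

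Bmp2 rose in all 3 mature types, Bmp3 fell in the 3 secretory gates, Id1 and Smad6 fell in Tuft, and Id2, Id3, Smad6 and Smad7 rose in EEC, all against Stem. The EEC calls of Id3, Smad6 and Smad7 rested on EEC 2, and with EEC 1 alone the log2 fold changes were -0.06, -0.20 and 0.64. The Tuft calls of Bmp3 and Smad6 were lost with DESeq2's size factors and by the DESeq2 test. A gene was called where the Benjamini-Hochberg adjusted p of edgeR's quasi-likelihood test was under 0.01 over all 22781 genes and its mean was at least 50 normalized counts. The percentages of all genes are over these 22781. Only 13381 of them, and all 10 genes here, had such a mean, so the share among genes that could be called is higher. In EEC against Stem, for example, the 4650 called genes lay among the 13381. Against Stem, 0 of the 10 genes were called in AbsPro, where 0.588% of all genes were. At an unadjusted p under 0.05, 2 of them (Bmp2 and Bmp7) passed there, and DESeq2 called 0. In SecPDG 1 gene fell (all genes: 5.00%), and in Tuft 1 rose and 3 fell (all genes: 12.3%). In Ent 1 gene rose (all genes: 22.7%), and 3 were called with size factors, library totals or DESeq2. In EEC 5 rose and 1 fell, against 20.4% of all genes. Between the progenitors, SecPDG against AbsPro, 1 gene rose and 3 fell (all genes: 3.73%). Along the lineages 1 rose and 1 fell in Ent against AbsPro (16.6%), 1 rose in Tuft against SecPDG (3.40%) and 6 rose in EEC against SecPDG (21.7%). Between the lineages, Ent against SecPDG, 4 rose and 2 fell (23.9%). The median log2 fold change of the 10 genes was 0.35 in AbsPro, -0.12 in SecPDG, -0.60 in Tuft, -0.22 in Ent and 1.18 in EEC against Stem. Over all genes with a mean of at least 50 it was 0.04, -0.06, -0.07, -0.28 and -0.29. Fewer cells of a type in a gate and less RNA per cell cannot be told apart in such bulk libraries.

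The scale of these fold changes depended on the normalization. With TMM factors, used throughout, the median gene moved by -0.284 in Ent and -0.288 in EEC against Stem, and with DESeq2's size factors by 0.345 and 0.472. The share of higher calls moved with it, from 2565 of 5180 to 4553 of 6038 genes in Ent and from 2568 of 4650 to 4370 of 5659 in EEC. With library totals it moved in SecPDG, from 773 of 1138 to 830 of 1880. The fold changes below are as fitted with TMM and were not shifted by these medians. Relative to the median gene, Bmp2 was 5.35 higher in Ent and 7.69 in EEC on the log2 scale, and Bmpr1a in Ent was at -0.48.

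**Figure D1:**
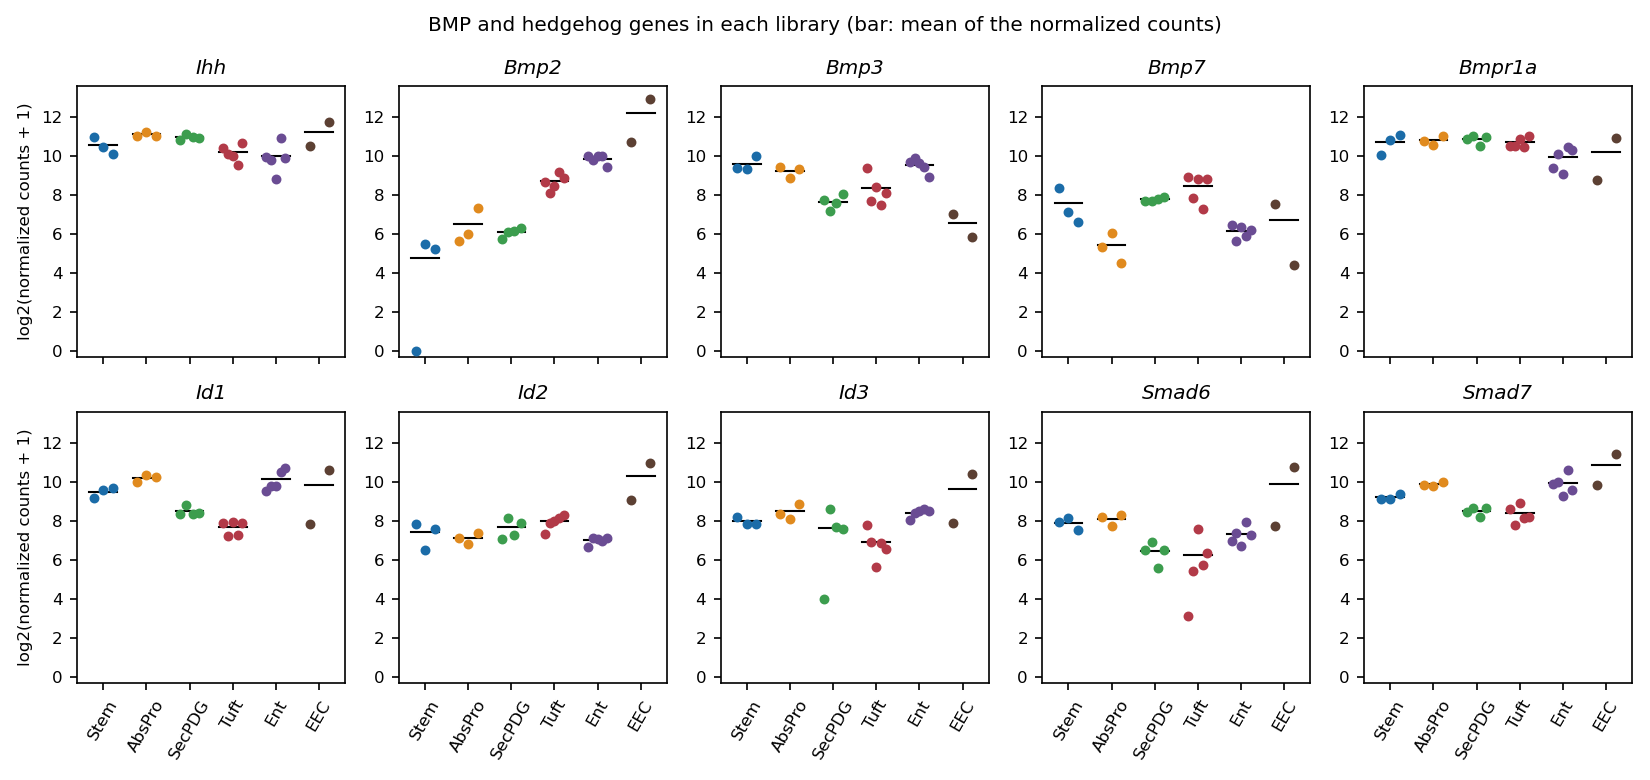
Normalized counts of the 10 genes in each of the 22 libraries, as log2(normalized counts + 1), with a point for each library, a bar for the log2 of the group mean, and the 6 cell types on the x axis. Bmp2 climbs from a mean of 26.8 in Stem to 4719 in EEC, Id1 is lowest in Tuft, and the EEC points of Id1, Id3 and Smad6 lie far apart.

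Per kb of exon, the means over all 22 libraries ordered the genes from Id1 (609.9 normalized counts per kb) and Ihh (527) through Bmpr1a (242), Bmp2 (216), Id3 (165), Smad7 (163) and Id2 (114) to Smad6 (70.4), Bmp3 (65.1) and Bmp7 (44.5). The ligand and receptor Ihh and Bmpr1a varied least between cell types, with a highest mean 2.35 and 1.86 times the lowest. Bmp2 varied most, by 176 times between EEC and Stem. The other 7 genes spanned 5.51 (Smad7) to 12.9 times (Smad6).

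Ihh, the hedgehog ligand of the intestinal epithelium, lies on chromosome 1 (chr1:74945315-74951672 of mm10, minus strand). Its levels in normalized counts were 2043, 1431 and 1124 in the 3 Stem libraries, 2116, 2427 and 2109.9 in AbsPro and 1821, 2239.9, 2027 and 1975 in SecPDG. They were 1372, 1113, 1022, 743 and 1614 in Tuft, 983, 881, 459, 1946 and 970.1 in Ent, and 1482 and 3435 in EEC. The ligand was thus high at every stage, steadiest in the progenitors, and reached its lowest level in Ent 3. Against Stem it was called in no type, and the log2 fold changes ran from -0.54 in Ent to 0.70 in EEC. Against AbsPro it fell in Ent (log2 fold change -1.08 ± 0.32, adjusted p = 0.0057), from a mean of 2218 ± 181 to 1048 ± 546 normalized counts (SD, n = 3 and 5). That call was lost without AbsPro 2, Ent 2 or Ent 3 (adjusted p 0.016 to 0.027) and under 5 alternatives, as with size factors (log2 fold change -0.58, adjusted p = 0.037). With size factors Ihh was instead called higher in EEC against Stem (1.30, adjusted p = 5.2e-04) and against SecPDG (0.91, adjusted p = 0.0069), as it was with library totals (1.01 and 0.84).

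The deposited DaPars tables give, for transcripts of Ihh, an estimated share of the distal polyadenylation site (0 to 1). The proximal site is a predicted position, and the share is not a count of reads ending at either site. The distal ends of both annotated transcripts carry the signal AATAAA, and the last 30 bases before the predicted proximal site do not. The 3 stretches are printed 5′ to 3′ on the minus strand of mm10, with the signal in capitals, since they are the ends that the share compares.
Ihh-201, last 30 bases, chr1:74945315-74945344: ttgtAATAAAaattatttaagttgttagaa
Ihh-202, last 30 bases, chr1:74947724-74947753: aatggactcAATAAAgtggatttttcccag
Ihh-201, 30 bases up to the predicted proximal site, chr1:74946495-74946524: tcggctggcgctcacgcctgcccacctgct
The signal starts 26 bases from the end of Ihh-201 and 21 bases from the end of Ihh-202. AATAAA was found 1 time in the 1433 bases of the last exon and 0 times in the 253 bases of that exon that precede the proximal site, and ATTAAA 0 times in either.

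For the transcript NM_010544 the tables treat the whole last exon, exon 3 (chr1:74945315-74946747), as the 3′ end, although GENCODE gives only 777 of its 1433 bases (chr1:74945315-74946091) as 3′ UTR. The 5 tables place the proximal site between 74946495 and 74946535, which lies in the coding part of the exon. The share was 0.37, 0.41 and 0.45 in Stem, and 0.54, 0.62, 0.80 and 0.70 in SecPDG. All SecPDG values lay above all Stem values, as they did for 6.70% of the 4223 transcripts in that table. The mean was higher by 0.255, which did not pass the test (limma on the log2 ratio of distal to proximal share, adjusted p = 0.85). In Ent the share was 0.52, 0.69, 0.68 and 0.76 in the 4 libraries with a value, again above all of Stem (7.64% of 2449 transcripts), with an adjusted p of 0.43. In AbsPro it was 0.66, 0.35 and 0.47 and in Tuft 0.21, 0.57, 0.25, 0.39 and 0.60, and both types overlapped Stem (adjusted p = 0.93 and 0.98), where 8.66% and 5.04% of transcripts did not. The 2 EEC values were 0.95 and 0.35 (adjusted p = 0.53), and without the EEC column at 0.35, so that 1 column is assumed to vary like Stem, the share was called higher than in Stem (log2 ratio difference 4.59, adjusted p = 0.0073).

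Few transcripts passed in any table. At an adjusted p under 0.05, limma called 0 transcripts in AbsPro, 1 in SecPDG (0.0237%), 2 in Tuft (0.0614%), 1 in Ent (0.0408%) and 0 in EEC. At an unadjusted p under 0.05 the counts were 196 of 4976, 205 of 4223, 169 of 3257, 209 of 2449 and 101 of 735. Only the shares were used. The 68 further per-sample columns, which give levels of the long and short forms, were not, so the signal behind each share was not examined.

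The other Ihh transcript, NM_001313683, ends in the intron that follows exon 2 (chr1:74947723-74948565). Its proximal site is set at 74948303, next to the end of exon 2, so its distal share follows reads in the intron, which GENCODE holds as the retained intron transcript Ihh-202. The share was 0, 0.12 and 0.10 in Stem, 0.21, 0.27 and 0.18 in AbsPro, and 0.33, 0.16, 0.22 and 0.26 in Ent. In SecPDG it was 0.05, 0.08, 0.08 and 0.10, in Tuft 0.25, 0.17, 0.02, 0.08 and 0.13, and in EEC 0.70 and 0.28. Values in AbsPro, Ent and EEC lay above all of Stem, as for 8.66%, 7.64% and 32.2% of transcripts in those tables, and no type passed the test (adjusted p 0.40 to 0.92). Reads outside annotated genes were also more frequent in Ent and EEC, with means of 76.3% and 77.1% of uniquely aligned reads against 47.1% in Stem. They made up 47.7% in AbsPro, whose intron share lay above Stem, and 60.9% in Tuft, whose share overlapped it, and their part in the intron share was not tested. Transcripts of Bmpr1a, Id1, Id3 and Smad7 were each listed in 3 or 4 of the tables, and none was called.

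**Figure D2:**
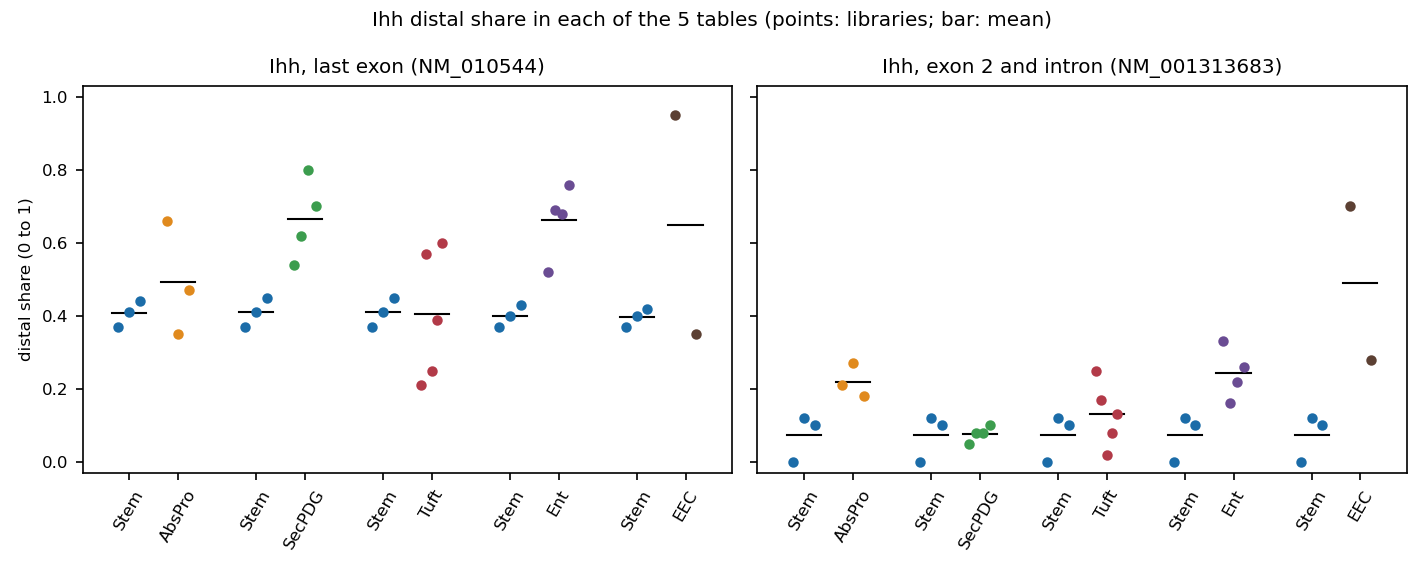
Distal site share of the 2 Ihh transcripts (0 to 1, y axis) in each of the 5 tables, each with its own Stem values, with a point for each library and a bar for the mean. For the last exon all SecPDG and Ent points lie above the Stem points, whose highest value is 0.45, while Tuft spans 0.21 to 0.60 and EEC holds 0.95 and 0.35.

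Bmp2, a ligand that promotes differentiation through Bmpr1a, lies on chromosome 2 (chr2:133552159-133562885, plus strand) and had the widest range of the 10 genes. Stem 1 had a count of 0, which allows up to 2.43 normalized counts (3 counts of 19900282 on genes, covering counting error only), and Stem 2 and Stem 3 had 44.0 and 36.3 normalized counts. AbsPro held 49.3, 64.5 and 162, and SecPDG 53.9, 68.3, 72.1 and 79.7. In the mature types the gene rose, to 413, 276, 351, 593 and 476 in Tuft, 1018, 903, 1027, 1047 and 704 in Ent, and 1674 and 7764 in EEC. No library of these 3 types overlapped a library of the 3 immature types. Against Stem the log2 fold change was 3.92 ± 0.56, adjusted p = 2.5e-07 in Tuft, 5.07 ± 0.53, adjusted p = 1.0e-10 in Ent and 7.41 ± 0.55, adjusted p = 3.3e-16 in EEC, so that Bmp2 was the only member called in Ent. Since 1 Stem library was at 0, these folds rest on the other Stem counts of 65 and 51.

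The same order held along each lineage. Bmp2 rose in Ent against AbsPro (log2 fold change 3.42 ± 0.45, adjusted p = 2.8e-07), in Tuft against SecPDG (2.63 ± 0.46, adjusted p = 5.9e-05) and in EEC against SecPDG (6.12 ± 0.46, adjusted p = 3.9e-16). It was the only member called in Tuft against SecPDG. In the order of means, EEC, Ent, Tuft and AbsPro each differed from the next (adjusted p = 7.0e-07, 0.0075 and 3.3e-04), and AbsPro, SecPDG and Stem did not pass (0.94 and 0.40). The step from Ent to EEC rested on EEC 2: with EEC 1 alone it was 0.83 (adjusted p = 0.14). The step from AbsPro to Tuft was lost without AbsPro 1 (adjusted p = 0.012), and that from Tuft to Ent without any of 12 libraries, among them 4 of Tuft and 4 of Ent (adjusted p 0.010 to 0.029). Against Stem the EEC value was 5.89 with EEC 1 alone and 7.95 with EEC 2 alone, and it was called with either. The background expected for its exon length was 29.4 in Tuft, 57.9 in Ent and 72.2 in EEC, below the lowest library of each (276, 704 and 1674).

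Bmp3, a ligand that lacks classical BMP activity and can oppose other BMPs, lies on chromosome 5 (chr5:98854415-98884396, plus strand) and was lower in the secretory types. It had 663, 649 and 1019.6 normalized counts in Stem, 692, 471 and 650.1 in AbsPro and 824, 950.5, 816, 697 and 489 in Ent. In SecPDG it had 213, 146, 194 and 264, in Tuft 667, 207, 337, 182 and 272, and in EEC 132 and 57.7. AbsPro and Ent overlapped Stem, whereas all SecPDG and EEC libraries lay below all Stem libraries and Tuft 1 overlapped them. Against Stem it fell in SecPDG (log2 fold change -1.92 ± 0.35, adjusted p = 7.3e-05), the only member called there, in Tuft (-1.23 ± 0.32, adjusted p = 0.0031) and in EEC (-3.13 ± 0.57, adjusted p = 1.4e-05), but not in Ent (-0.04, adjusted p = 0.92). It was also lower in SecPDG than in AbsPro (-1.55 ± 0.36, adjusted p = 0.0026).

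The EEC call of Bmp3 held with each EEC library alone (-2.56 with EEC 1 and -3.91 with EEC 2). The Tuft call was lost without Stem 3, Tuft 2 or Tuft 4 (adjusted p 0.014 to 0.035), with size factors (-1.02, adjusted p = 0.022), with library totals (-1.18, adjusted p = 0.011) and by DESeq2 (-0.98, adjusted p = 0.064). The call between the progenitors was lost without AbsPro 1, AbsPro 3, SecPDG 2 or SecPDG 3 (adjusted p 0.012 to 0.038) and by DESeq2 (adjusted p = 0.016). Bmp3 has the longest exons of the 10 genes, 7398 bases, and its background was 150.3 in EEC, above its mean of 94.8 there, 121 in Ent and 61.1 in Tuft. In EEC 1 the background was above the level (253 against 132) and in EEC 2 below it (47.6 against 57.7), while in Stem the background was 5.05.

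Bmp7, a ligand that acts through the same receptors, lies on chromosome 2 (chr2:172868012-172940321, minus strand) and was highest in Tuft and SecPDG and lowest in AbsPro and Ent. Its values were 206, 210.2, 227 and 243 normalized counts in SecPDG and 495, 233, 449, 154 and 455 in Tuft. They were 40.3, 65.3 and 21.8 in AbsPro, 89.6, 49.7, 80.6, 59.1 and 73.2 in Ent, and 187 and 20.5 in EEC. In Stem it had 336, 141 and 99.0. The progenitors did not overlap, and Bmp7 was higher in SecPDG than in AbsPro (log2 fold change 2.36 ± 0.55, adjusted p = 0.0028), the only member that rose in that comparison. That call was lost without AbsPro 1 or AbsPro 3 (adjusted p 0.028 to 0.034) and with library totals (2.20, adjusted p = 0.014). Against Stem it was called in no type, although the values were -2.13 in AbsPro (adjusted p = 0.043) and -1.44 in Ent (adjusted p = 0.011). The Ent value became a call without any of 9 libraries (adjusted p 0.0021 to 0.0099). Its background was 65.5 in Ent, close to the mean of 70.4 there, 81.6 in EEC beside a mean of 104, and 33.2 in Tuft, below the lowest Tuft library (154).

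**Figure D3:**
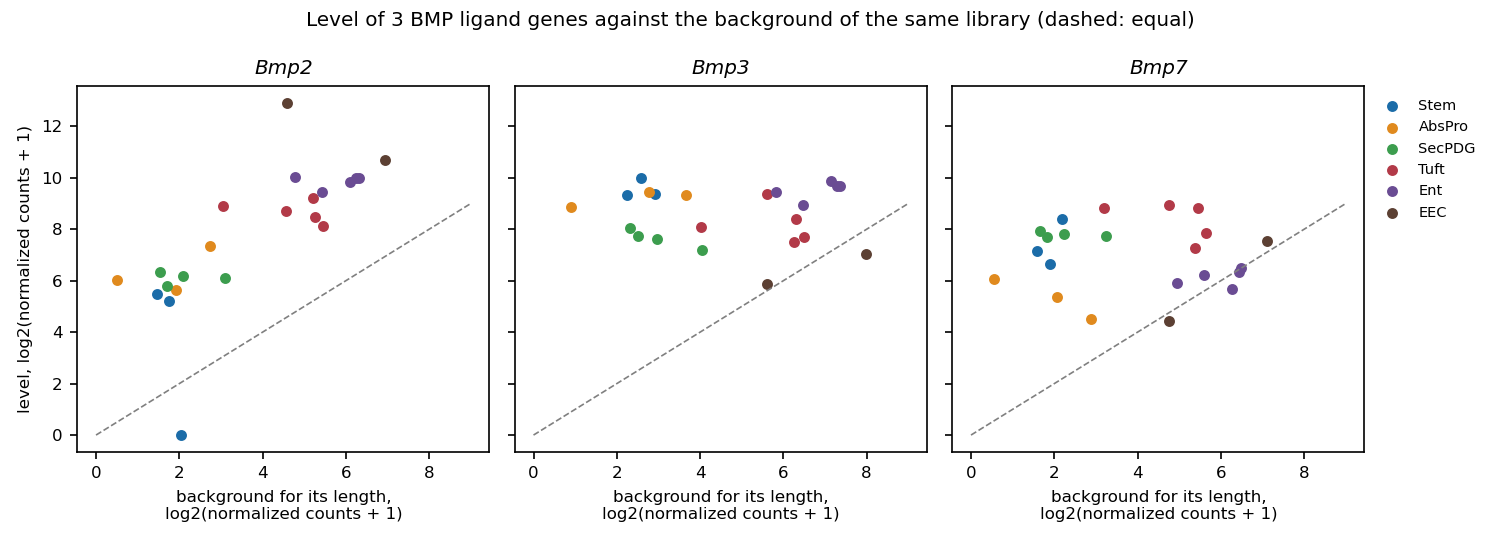
Level of Bmp2, Bmp3 and Bmp7 (y axis) against the background expected for the exon length of each gene in the same library (x axis), both as log2(normalized counts + 1), with a point for each of the 22 libraries and a dashed line where they are equal. Bmp2 in Tuft, Ent and EEC lies above the line, as in Ent with a mean of 939.9 against 57.9, whereas Bmp3 in EEC (94.8 against 150.3) and Bmp7 in Ent (70.4 against 65.5) lie near it.

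Bmpr1a, the type I receptor through which BMPs act on the intestinal epithelium, lies on chromosome 14 (chr14:34410734-34503341, minus strand) and was called in none of the 9 comparisons. Its libraries spanned 1061 to 2207 normalized counts in Stem and 1549 to 2112 in AbsPro. They spanned 1454 to 2137 in SecPDG, 1443 to 2112 in Tuft and 553 to 1403 in Ent. The EEC libraries held 441 and 1969, and EEC 1 was the lowest of all 22 libraries. The lowest mean was in Ent (1003 ± 375, SD, n = 5), with a log2 fold change of -0.77 ± 0.33, adjusted p = 0.037 against Stem and -0.85 ± 0.33, adjusted p = 0.027 against AbsPro. Both became calls without any of 4 and 5 libraries (adjusted p 0.00060 to 0.0066 and 0.00028 to 0.0082). With size factors the values were -0.24 and -0.31 (adjusted p = 0.34 and 0.24). With EEC 1 alone it was called lower in EEC than in Stem (-1.96, adjusted p = 0.0025), and with EEC 2 alone the value was 0.05. An antisense gene, Gm17110, shares 290 bases of exon with Bmpr1a, and counting without strand cannot tell their reads apart.

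Splicing tables from rMATS listed exons of 2 of the genes. The Bmpr1a exon at chr14:34443819-34443981 was included in 98.1% of Stem transcripts (411 inclusion and 3 skipping counts) and in 100% in each other type, with 0 skipping counts there. A Bmpr1a exon at chr14:34460499-34460612 and a Bmp7 exon at chr2:172872872-172872982 were listed in the Tuft table only, at 99.4% and 98.1% in Tuft. Of these 7 events, 5 had at least 10 counts in every library and were tested, and edgeR called 0 of them (adjusted p 0.65 to 0.76). Over all genes it called 0 exons in each of the 5 tables, with 3 of 2502, 21 of 2615, 33 of 2137, 57 of 2038 and 4 of 474 at an unadjusted p under 0.05 in AbsPro, SecPDG, Tuft, Ent and EEC. Each is a smaller share than the 0.05 that evenly spread p-values would give. The exon test was thus conservative, and its 0 calls cannot show that exon use was alike.

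Promoters of 5 of the 10 genes (Ihh, Id2, Id3, Smad6 and Bmpr1a) were taken from the RefSeq table for GRCm38.p6, as a window around each transcription start. They were searched on both strands for GGCGCC, the core of BMP response elements known from Id genes, and for GTCTAGAC, the palindromic Smad box. Both motifs read the same on either strand. GGCGCC was in 2 of these 5 promoters and in 11.87% of all 32851, and GTCTAGAC in 1 of 5 and in 0.2131% of all. The counts out of 5 leave out the other genes of the set, so they do not describe all 10. The 30 bases around each match are printed on the strand of the gene with the motif in capitals.
Id2, chr12:25096306-25096335: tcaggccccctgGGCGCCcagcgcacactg
Bmpr1a, chr14:34502727-34502756: tgcgcgcgcgccGGCGCCtcttgctcgccc
Smad6, chr9:64022045-64022074: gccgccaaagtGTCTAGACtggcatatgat
The matches start 231, 198 and 4 bases before the transcription start. A match describes the letters only, and no binding was measured.

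The Id genes encode helix-loop-helix proteins without a DNA-binding region, which hold back basic helix-loop-helix factors and are direct targets of BMP signaling. Id1 (chromosome 2, chr2:152736251-152737410, plus strand) was high in the absorptive line and low in SecPDG and Tuft. It had 566, 769 and 825 normalized counts in Stem, 1013, 1320.1 and 1201 in AbsPro and 736, 874, 895, 1444 and 1674 in Ent. In SecPDG it had 329, 443, 325 and 333, in Tuft 237, 149, 244, 154 and 235, and in EEC 225 and 1573. All Tuft libraries lay below all Stem libraries, and all SecPDG libraries below all AbsPro libraries. It fell in Tuft against Stem (log2 fold change -1.81 ± 0.36, adjusted p = 1.7e-04) and in SecPDG against AbsPro (-1.73 ± 0.36, adjusted p = 4.7e-04), and both calls held without each library in turn. In SecPDG against Stem it was -1.02 ± 0.36, adjusted p = 0.072, and it was called with library totals (-1.26, adjusted p = 6.5e-04). In Ent against Stem the value was 0.64 ± 0.33, adjusted p = 0.084, and it was called with size factors (1.17, adjusted p = 3.5e-04), with library totals and by DESeq2. In EEC against SecPDG it was called higher (1.40 ± 0.41, adjusted p = 0.0044). That call was lost without SecPDG 1, SecPDG 3 or SecPDG 4 and turned with EEC 1 alone (-0.66, adjusted p = 0.37, against 1.94 with EEC 2 alone).

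Id2 (chromosome 12, chr12:25093799-25097140, minus strand) was similar in the first 5 types and high in EEC. Its values ran from 91.3 to 229 normalized counts in Stem and 112 to 166 in AbsPro. They ran from 134 to 285 in SecPDG, 161 to 309 in Tuft and 98.9 to 139 in Ent. The EEC libraries held 543 and 1982, both above every other library. Against Stem it rose in EEC (log2 fold change 2.95 ± 0.41, adjusted p = 9.8e-08), and this held with EEC 1 alone (1.69, adjusted p = 0.0051) and with EEC 2 alone (3.40). Against SecPDG it rose too (2.72 ± 0.39, adjusted p = 1.5e-07), but not with EEC 1 alone (1.46, adjusted p = 0.013). None of the other 7 comparisons called it.

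Id3 (chromosome 4, chr4:136143497-136145755, plus strand) had 288, 231 and 230.0 normalized counts in Stem, 322, 274 and 472 in AbsPro and 266, 342, 360.1, 389 and 356 in Ent. SecPDG held 15.0, 390.2, 203 and 190.4, with SecPDG 1 far below the rest, and Tuft 223, 119, 48.1, 117 and 93.7. EEC held 239 and 1339, so that EEC 1 lay within the range of Stem and EEC 2 above every other library. Of the 9 comparisons, those of EEC called it, against Stem (1.73 ± 0.48, adjusted p = 0.0025) and against SecPDG (2.10 ± 0.47, adjusted p = 3.0e-04). With EEC 1 alone these were -0.06 (adjusted p = 1.0) and 0.31 (adjusted p = 0.76), and with EEC 2 alone 2.26 and 2.62. The call against Stem was also lost without Stem 2 or Stem 3 (adjusted p 0.016 or above).

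Smad6 and Smad7, the inhibitory Smads, are targets of the pathway that they block. Smad6 (chromosome 9, chr9:63953076-64022059, minus strand) had 248, 285 and 181 normalized counts in Stem, 293, 213 and 316 in AbsPro and 124, 167, 103, 248 and 154 in Ent. It had 89.9, 121, 47.2 and 90.0 in SecPDG, 7.74, 41.3, 189.7, 52.3 and 79.6 in Tuft, and 208 and 1708 in EEC. SecPDG lay below all of Stem and AbsPro, Tuft 3 alone of its type reached Stem, and EEC 2 lay above every other library by far. It fell in Tuft against Stem (log2 fold change -1.69 ± 0.50, adjusted p = 0.009), a call lost without any of 10 libraries (adjusted p 0.01 to 0.047) that was -2.30 without Tuft 3. It was also lost with size factors (adjusted p = 0.015), with the older method of edgeR (0.030) and by DESeq2 (0.031). In SecPDG the values were -1.49 ± 0.51, adjusted p = 0.058 against Stem and -1.69 ± 0.51, adjusted p = 0.03 against AbsPro, and both were called with library totals (-1.73, adjusted p = 0.0087, and -1.86, adjusted p = 0.0057). It rose in EEC against Stem (2.07 ± 0.46, adjusted p = 2.6e-04) and against SecPDG (3.56 ± 0.50, adjusted p = 8.8e-08). With EEC 1 alone these were -0.20 and 1.30 (adjusted p = 0.86 and 0.14), and with EEC 2 alone 2.67 and 4.13. The background for its length was 26.5 in Tuft, where the lowest library held 7.74, and 52.2 in Ent.

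Smad7 (chromosome 18, chr18:75367529-75395935, plus strand) had 556, 559 and 653 normalized counts in Stem, 916, 878 and 1002 in AbsPro and 944, 1007, 612, 1575 and 769.6 in Ent. It had 349, 398, 294 and 403 in SecPDG, 384, 220.0, 483, 283 and 295 in Tuft, and 919 and 2753 in EEC. Like Id1 it was high in AbsPro and Ent and low in SecPDG and Tuft, and all SecPDG libraries lay below all Stem and AbsPro libraries. It fell in SecPDG against AbsPro (-1.38 ± 0.34, adjusted p = 0.0046), a call lost without AbsPro 2 or any SecPDG library (adjusted p 0.011 to 0.03). The older quasi-likelihood method of edgeR ended the calls of Bmp3, Bmp7 and Smad7 between the progenitors (adjusted p = 0.010, 0.025 and 0.013). In Ent against Stem it was 0.74 ± 0.32, adjusted p = 0.039, and it was called with size factors (1.27, adjusted p = 6.8e-05), with library totals and by DESeq2. It rose in EEC against Stem (1.66 ± 0.37, adjusted p = 3.0e-04) and against SecPDG (2.38 ± 0.37, adjusted p = 6.4e-07). With EEC 1 alone the rise against SecPDG was 1.35 (adjusted p = 0.0086), still called, and that against Stem 0.64 (adjusted p = 0.23), not called.

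**Figure D4:**
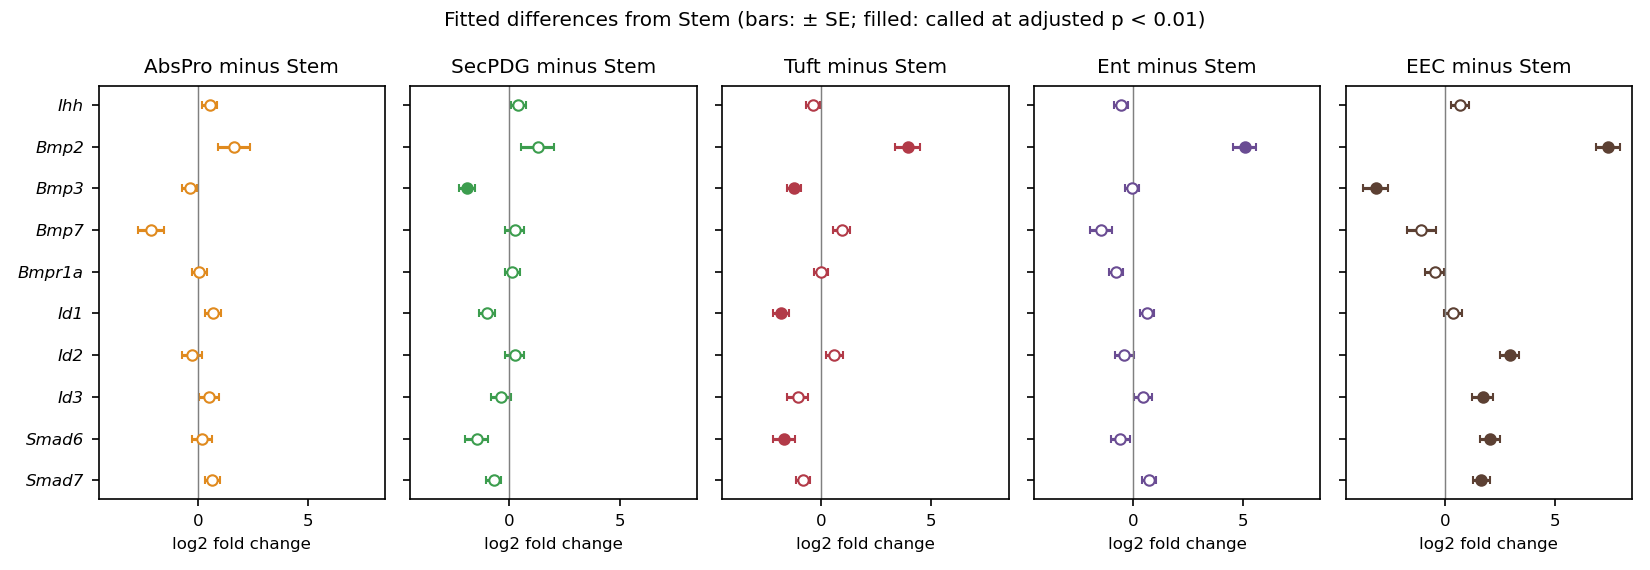
Log2 fold change of each of the 10 genes against Stem in AbsPro, SecPDG, Tuft, Ent and EEC, in log2 units, with the SE and with called genes marked. Bmp2 rises in Tuft (3.92), Ent (5.07) and EEC (7.41), Bmp3 falls in SecPDG (-1.92), Tuft (-1.23) and EEC (-3.13), and no gene is called in AbsPro.

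In EEC against Stem the 6 calls were thus of 2 kinds. Bmp2, Bmp3 and Id2 were called with either EEC library alone, although the log2 fold change of Bmp2 moved from 5.89 with EEC 1 to 7.95 with EEC 2. Id3, Smad6 and Smad7 were called with EEC 2 and not with EEC 1. The calls of Id3 and Smad6 were also lost with the older quasi-likelihood method of edgeR (adjusted p = 0.045 and 0.026) and in a fit of these 2 types only (0.024 and 0.021). The fit takes 1 estimate of the spread per gene over all types, so the 2 EEC libraries weigh little in it. Their SD was 1060 around a mean of 958 for Smad6, and 778 around 789 for Id3. With a lone EEC library, the spread comes from the other types alone. EEC 2 is the library with more enterocyte markers (92976 against 4274) and the lower background (6.43 against 34.2), and EEC 1 the shallower, with 89.7% of uniquely aligned reads outside genes against 64.5%. The part of these differences in the results was not tested.

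**Figure D5:**
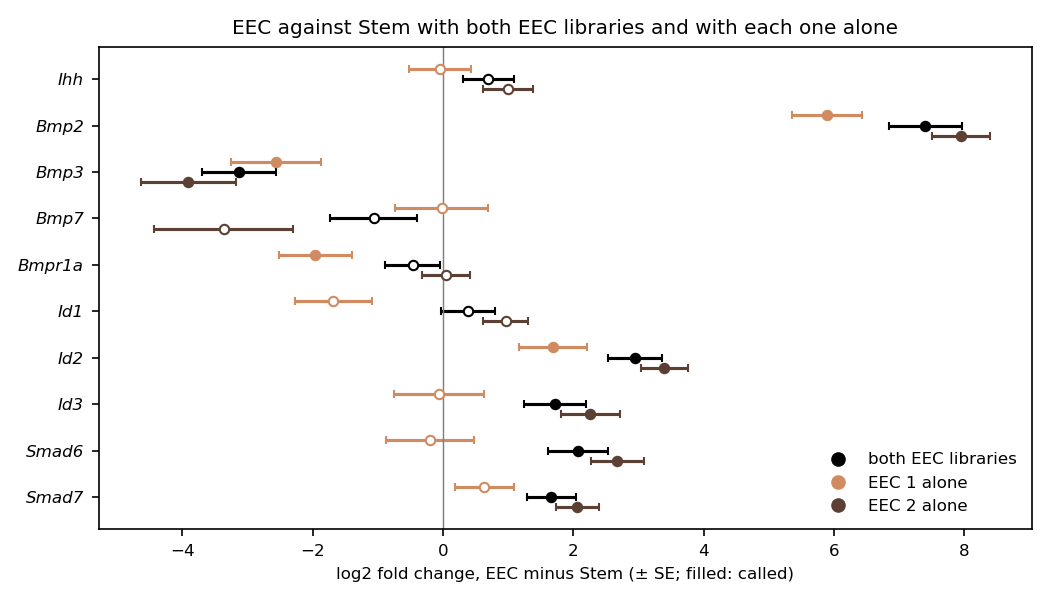
Log2 fold change of EEC against Stem (x axis, log2 units, bars: SE) for each of the 10 genes, fitted with both EEC libraries, with EEC 1 alone and with EEC 2 alone; filled points were called. Bmp2 is called in all 3 fits (5.89 with EEC 1 and 7.95 with EEC 2), whereas Smad6 is at -0.20 with EEC 1 and 2.67 with EEC 2.

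The other genes of both pathways were followed in lists of ligands, receptors, Smads, antagonists, targets and hedgehog components. They hold 59 further genes in the count table, of which 58 were tested and 32 had a mean of at least 50 normalized counts. Called genes numbered 0 in AbsPro, 2 higher and 1 lower in SecPDG, 7 and 2 in Tuft, 9 and 6 in Ent, and 12 and 3 in EEC, all against Stem. The percentages of all genes called are those given above for each comparison. Between SecPDG and AbsPro 1 of them was called, higher. In Ent against AbsPro 8 were higher and 4 lower, in Tuft against SecPDG 2 higher and 0 lower, and in EEC against SecPDG 12 were higher and 5 lower. Several of the higher genes lay near the background of their length, which is given with them. Some reached the minimum mean only through types in which they were called, as said below for each.

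Among ligands, Bmp8a rose in SecPDG (169 ± 77.0 normalized counts, SD, n = 4, against 11.4 ± 19.1 in Stem), with a log2 fold change of 3.81 ± 0.75, adjusted p = 1.8e-04, and in Tuft (3.91) and Ent (3.32). Shh, another hedgehog ligand, reached the minimum mean only through Tuft, with 229 ± 45.7 normalized counts there (n = 5) against 22.3 ± 17.7 in Stem and means of 15.9 to 33.4 in the other 4 types. Its fitted difference in Tuft was a log2 fold change of 3.34 ± 0.56, adjusted p = 7.1e-06, beside a background of 23.5 normalized counts. The Bmp8a call in Ent was lost without Stem 2 (adjusted p = 0.011), and those of Bmp8a and Shh with the older method of edgeR (adjusted p up to 0.041). Disp2, a homolog of the Dispatched proteins that release hedgehog ligands, rose in EEC to 1702 and 6330.3 from a mean of 31.3 ± 39.7 (7.11 ± 0.61, adjusted p = 3.9e-14) and in Ent (3.25). Hhat, which attaches the lipid of these ligands, was called in EEC (2.03), where its background was 186 beside a mean of 273, and the call was lost without EEC 1, Stem 2 or Stem 3 (adjusted p 0.013 to 0.51).

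Among receptors, Acvrl1, a type I receptor best known in endothelium, rose in EEC (479.5 and 2979.8 normalized counts against 125 ± 69.9 in Stem), with a log2 fold change of 3.85 ± 0.48, adjusted p = 4.5e-09. Endothelial markers were higher there too, as given above. Bmpr1b reached the minimum mean only through Ent and EEC. It was called in Ent (3.26) and EEC (3.16) at means of 129 and 129.5 beside backgrounds of 97.1 and 121. The Ent call was lost without Stem 3, Ent 1 or EEC 1, and the EEC call without any of 8 libraries and with library totals. Smad9, a receptor Smad, reached the minimum mean only through EEC, with 588 and 651 there against 42.1 ± 2.84 in Stem. Its means in the other types were 11.0 to 80.2. Its fitted difference in EEC was 3.88 ± 0.54, adjusted p = 5.9e-08, and the call was lost with the older method (adjusted p = 0.020). Smad4, the common partner, fell in Ent (-1.08) and EEC (-1.47), calls lost without Stem 1, without Ent 2 or Ent 3 for Ent and without EEC 1 for EEC (adjusted p 0.012 to 0.066). With size factors the Ent call of Smad4 was lost.

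Of the secreted antagonists, Twsg1, which binds BMPs together with chordin, fell in Ent (290.1 ± 75.9 against 923 ± 104 normalized counts, log2 fold change -1.67 ± 0.30, adjusted p = 1.4e-05). Nbl1, which also binds BMPs, and Chrd reached the minimum mean only through Ent. Nbl1 was called in Ent (3.26, lost with the older method, adjusted p = 0.036) and in EEC (2.81). The EEC call of Nbl1 was lost without any of 8 libraries and with library totals. Chrd was called in Tuft, Ent and EEC at means of 83.2, 122 and 129, beside backgrounds of 51.7, 102 and 127. The call of Chrd was lost in Tuft without Stem 2 (adjusted p = 0.010) and in EEC without EEC 1 (adjusted p = 0.17). Of the other BMP targets, Id4 reached the minimum mean only through SecPDG and Tuft, the types in which Id1 was lowest. Its means in AbsPro, Ent and EEC were 38.6, 36.2 and 10.9. It was called in SecPDG, at 224 ± 36.2 against 4.95 ± 6.89 in Stem (5.42 ± 0.71, adjusted p = 3.0e-08), and in Tuft (4.79). Atoh8, a transcription factor, fell in Ent (-1.63, adjusted p = 0.0053), a call lost without Stem 3, Ent 2, Ent 4 or Ent 5 and with size factors or library totals. Its mean in Ent was 57.6, beside a background of 40.8.

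Among hedgehog receptors and their partners, calls went both ways. Boc, a co-receptor, was at 3303 ± 559 normalized counts in Stem and fell in SecPDG (-1.88), Tuft (-1.75), Ent (-3.07) and EEC (-2.33), each call held without each library in turn. Smo, the transducer of the signal, fell in Tuft (-1.07), Ent (-2.56) and EEC (-3.71) from 1558 ± 64.8 in Stem. In EEC its lowest value was 103 and its highest 141, beside a background of 114. The Tuft call of Smo was lost without Stem 1 (adjusted p = 0.011). Ptch1, receptor and target, fell in Ent (-1.09), to a mean of 355 beside a background of 231, a call lost without Stem 1, Ent 2 or Ent 3 and with size factors or library totals. Cdon, a co-receptor like Boc, rose in Ent (1.31, lost without Stem 2, adjusted p = 0.013) and EEC (1.92, lost without EEC 2, adjusted p = 0.041). Hhip, which binds and removes the ligands, was called in Tuft, Ent and EEC at means of 73.7, 168 and 331, beside backgrounds of 74.9, 148 and 184. The transcription factors Gli2 and Gli3 were called in the same types, Gli2 at means of 97.4, 151 and 195 beside 56.7, 112 and 139.5. Gli3 was at 75.9, 149 and 267 beside 79.2, 156 and 195, and had 0 counts in all 3 Stem libraries. Hhip, Gli2 and Gli3 reached the minimum mean only through Tuft, Ent and EEC. In Stem, AbsPro and SecPDG the means were 3.09, 10.9 and 5.52 for Hhip and 12.8, 15.2 and 4.58 for Gli2. For Gli3 they were 0, 18.9 and 8.25. The Tuft calls of Hhip, Gli2 and Gli3 were lost without any of 5, 9 and 2 libraries and with size factors or library totals, and the EEC calls of Gli2 and Gli3 without EEC 1 (adjusted p = 0.023 and 0.39). Kif7, a regulator of the Gli proteins, was called in EEC (3.43), beside a background of 93.04. Its lowest EEC value was 28.2 and its highest 729.8, and the call was lost without EEC 1.

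By list, with the 10 genes included, the counts were as follows against Stem. Of 7 BMP receptors, all with a mean of at least 50, 0 were called in AbsPro, SecPDG and Tuft, 1 in Ent (all genes: 22.7%) and 2 in EEC (20.4%), and their median log2 fold change stayed between -0.22 and 0.10 over the 5 types. Of 5 inhibitors inside the cell, 0 were called in AbsPro (all genes: 0.588%), SecPDG (5.00%) and Ent (22.7%). In Tuft 1 fell (Smad6, all genes: 12.3%) and in EEC 2 rose (Smad6 and Smad7, all genes: 20.4%). The medians of this list ran from -0.52 in SecPDG to 0.19 in AbsPro. Of 7 hedgehog receptors and regulators, 5 with a mean of at least 50, 0 were called in AbsPro (all genes: 0.588%) and 1 fell in SecPDG (5.00%). In Tuft 1 of them was higher and 2 lower (all genes: 12.3%), in Ent 2 and 3 (22.7%), and in EEC 2 and 2 (20.4%). The 3 stromal hedgehog targets in the table had means under 50 and none could be called, and Foxf1a was not found by that symbol.

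Ordered by mean, each gene gives 5 pairs of neighbouring cell types, and 5 of these 50 pairs were called. They were the 3 steps of Bmp2 given above, EEC over Tuft for Id2 (log2 fold change 2.36 ± 0.36, adjusted p = 1.5e-06) and EEC over AbsPro for Smad6 (1.87 ± 0.46, adjusted p = 0.001). Between these pairs 4.72%, 8.45%, 8.23%, 9.37% and 18.8% of all genes were called. With EEC 1 alone the steps of Id2 and Smad6 were 1.10 (adjusted p = 0.071) and -0.40 (adjusted p = 0.66). For Ihh, Bmp3, Bmp7, Bmpr1a, Id1, Id3 and Smad7 no neighbouring pair passed.

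As a description over the 22 libraries, which share cell type and depth, Id1 and Smad7 had a Pearson r of 0.80 in log2 CPM and Smad6 and Smad7 of 0.78. Among the Id genes r was 0.65 for Id1 and Id3, -0.18 for Id1 and Id2 and 0.25 for Id2 and Id3. Bmp7 ran against Id1 (-0.81) and Smad7 (-0.79), and Bmp3 against Id2 (-0.77). Among 13381 genes with a mean of at least 50, the 3 with the pattern most like Ihh were Ddr1 (0.94), Ece1 (0.94) and Pex5 (0.90), and most like Bmp2 Cacnb1 (0.92), Trim62 (0.91) and Stxbp5l (0.91). For Bmp3 they were Tnfrsf10b (0.88), Edn1 (0.85) and C130074G19Rik (0.84), for Bmp7 Cmah (0.89), Cited4 (0.84) and Hspg2 (0.83), and for Bmpr1a Mtmr2 (0.95), Zbed6 (0.95) and Arih1 (0.95). For Id1 they were Selenbp1, Lgals3 and Car1 (0.95, 0.95 and 0.94), and for Id2 Nin (0.89), Rasal2 (0.88) and Atp6v1b2 (0.87). For Id3 they were Gpt (0.90), Cd302 (0.89) and Tlr5 (0.87), for Smad6 Foxn3 (0.92), Adck5 (0.85) and Cyp2w1 (0.84), and for Smad7 Slc9a2 (0.93), Ddc (0.92) and Btnl6 (0.92).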

How the data were processed

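RNA from 22 sorted libraries was sequenced with a low-input kit. The authors aligned reads to mm10 with STAR 2.5.2a and counted them with HTSeq 0.6.1p1 without strand, and deposited raw counts per gene. Entries naming no gene, 53.9% to 91.6% of a library, were left out. The authors also deposited DaPars distal site shares, a fraction from 0 to 1, and rMATS exon counts. Columns of the authors' comparisons, the MAJIQ tables and 68 further per-sample columns were not used. Columns of the DaPars and rMATS tables name the cell type, not the library.

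Counts were fitted in one edgeR 4.0.16 quasi-likelihood model (R 4.3.3) over 6 cell types, with TMM factors and 22781 genes. Normalized counts are counts divided by library total times TMM factor, rescaled to the mean total. Shares were tested with limma 3.58.1 on log2((share + 0.01)/(1 - share + 0.01)), and exons with edgeR, at an adjusted p under 0.05. P-values measure the spread between libraries of a type. For gene counts this spread has 1 estimate per gene shared by all 6 types, so the EEC tests assume that EEC varies like the other types. The scripts were tested on simulated data. The 10 genes, the pathway and marker lists and the tests were chosen with earlier results of these data known. Named pathway genes were those called in a comparison with Stem. Alternatives were other scaling, filters and thresholds, DESeq2 1.42.0, fits of 2 types, a replicate block, each library left out and, added after seeing the data, the older quasi-likelihood method of edgeR.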

Additional observations from a re-analysis of the deposited data

Results flagged for a closer look

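Among 45 groups of 4 or 5 libraries, 1 library stood apart from the rest of its group by Dixon's criterion. It was SecPDG 2 for Id1, at 443 normalized counts, where the other 3 SecPDG libraries held 325 to 333. Chance flags about 1 in 20 groups. Id1 remained called lower in SecPDG than in AbsPro without SecPDG 2.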

How the results depend on the processing

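The number of the 10 genes called changed by more than 1.5 times under these alternatives. With DESeq2's size factors it was 2 in Tuft against Stem, 3 in Ent against Stem and 1 in Ent against AbsPro, and the DESeq2 test gave the same 3 counts. With library totals it was 3 in SecPDG against Stem, 3 in Ent against Stem and 1 in Ent against AbsPro, and 8 neighbouring pairs were called. With the older method of edgeR it was 2 in Tuft against Stem, 1 in SecPDG against AbsPro and 1 in Ent against AbsPro, and 3 neighbouring pairs. In fits of 2 types only it was 2 in SecPDG against Stem, 3 in Ent against Stem, 1 in Ent against AbsPro and 2 in Tuft against SecPDG. At an adjusted p under 0.05 it was 1 in AbsPro and 4 in Ent against Stem, and with no filter on low counts 2 in Ent against Stem. The causes of these changes were not tested.

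With each library left out in turn, the count was 0 in AbsPro against Stem, 1 to 3 in SecPDG, 2 to 5 in Tuft, 1 to 3 in Ent and 4 to 6 in EEC. It was 2 to 5 in SecPDG against AbsPro, 1 to 3 in Ent against AbsPro, 1 in Tuft against SecPDG, 3 to 7 in EEC against SecPDG and 3 to 8 for neighbouring pairs. The log2 ratio difference of the Ihh last exon share in AbsPro spanned 0.01 to 0.92. In SecPDG the span was 1.22 to 1.80, with -0.39 to 0.21 in Tuft, 1.34 to 1.85 in Ent and -0.28 to 4.59 in EEC, and exons called stayed at 0. Without EEC 2, 3 values turned: Id1 in EEC against SecPDG (-0.66, and up to 1.94 without EEC 1), Id3 in EEC against Stem (-0.061, up to 2.26) and Smad6 in EEC against Stem (-0.20, up to 2.67). Over all results, 909 values under other settings kept their direction and side of the threshold, 31 passed it newly and 25 no longer did. With a library left out, 2062 kept both, 26 passed newly, 36 no longer did, and the 3 above turned. A fit of the Ent shares with a value in every library gave none for Ihh. Depth was lowest in EEC 1 (4122122 counts on genes) and Ent 1 (5950619).

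Replicate numbers did not pair the libraries. Over 44 pairs with the same number the deviations from the group means correlated at -0.396 to 0.503, with 14 over 0.1. Over 154 pairs with other numbers they correlated at -0.554 to 0.631, with 45 over 0.1. The medians were 0.000159 and 0.00424, and 5 of 22 libraries correlated best with their own number. The replicate block gave 2 calls in Ent against Stem in place of 1, 5 in place of 4 in SecPDG against AbsPro and 3 in place of 2 in Ent against AbsPro. No paired analysis was possible for shares and exons because their columns carry no library number.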
